A study of Mus musculus with 28 samples.

Results

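Of the 40021 genes listed for the sorted retinal microglia, 9 genes for transcription factors of macrophage and microglial identity were followed: Maf, Sall1, Hhex, Bhlhe41, Mef2a, Mef2c, Spi1, Runx1 and Cebpa. They were chosen by gene symbol with earlier results of these data known, so that shares over all genes given beside them are descriptions. All 9 had a row in the table, and all 9 were among the 13164 genes tested. Levels are RPKM, read numbers scaled to transcript length and to library size, and are therefore per length. The 28 samples were single retinas of male heterozygous Cx3cr1CreER:R26-tdTomato (C57BL/6) mice: 10 naïve and uninjected, and 18 with endotoxin-induced uveitis (EIU) from lipopolysaccharide (LPS, a bacterial cell wall component) injected into the vitreous, of which 6 were taken 4 h later, 5 after 18 h and 7 after 2 weeks. In these mice Cre recombinase is driven by the fractalkine receptor gene Cx3cr1, of which 1 copy is lost, and tamoxifen, given to the eyes of all mice in the weeks before, switches on the red protein tdTomato. Live cells high in tdTomato were sorted, so that cells keep the label whatever their Cx3cr1 level at the time of sorting. No retina injected with vehicle alone was analysed here. The retinas came from 2 experiments, and the labels do not tie left and right eyes to animals: where both eyes of a mouse were used, p-values are too small. The 4 retinas with the fewest genes detected stood apart from the other 24, and calls that turn on them are given with and without them.

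Transcription factors set the identity of a macrophage in layers. PU.1 (encoded by Spi1), RUNX1 and the C/EBP proteins open and occupy the enhancers of the whole myeloid lineage, and MAF and MEF2 proteins act with them in tissue macrophages. SALL1, a zinc finger repressor, is largely restricted to microglia among macrophages, and HHEX, a homeobox protein, and BHLHE41, a basic helix-loop-helix repressor, are further regulators expressed in microglia. Known targets of this network are the surface receptors by which resting microglia are recognised, such as P2ry12. Whether such genes keep their level through an inflammatory stimulus, and whether they return afterwards, is what the time course addresses for these factors.

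At 4 h, 4 of the 9 factors had fallen and 1 had risen. Maf, Sall1, Hhex and Bhlhe41 were 4.55- to 17.7-fold lower than in naïve retinas, and Runx1 rose 2.09-fold, all on the log2(RPKM + 1) scale. At 18 h only Sall1 and Mef2a were called, both lower, and at 2 weeks none of the 9 was. A gene counted as a call, or differentially expressed gene (DEG), where its adjusted p did not exceed 0.05 and its group means differed at least 2-fold, in a limma fit of the 4 groups over the 28 retinas with Benjamini-Hochberg adjustment over all genes tested. The 5 of 9 called at 4 h compare with 8.08% of all genes tested (4.39% lower and 3.68% higher), the 2 of 9 at 18 h with 4.69% (1.85% lower and 2.84% higher), and the 0 of 9 at 2 weeks with 0.0076%, which is 1 gene. The median log2 difference of the 9 factors was -1.27 at 4 h, -0.90 at 18 h and -0.12 at 2 weeks, beside -0.11, -0.08 and 0.07 over all genes tested. These comparisons share the naïve retinas, and in bulk samples fewer cells of a kind and less RNA per cell cannot be told apart.

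**Figure D1:**
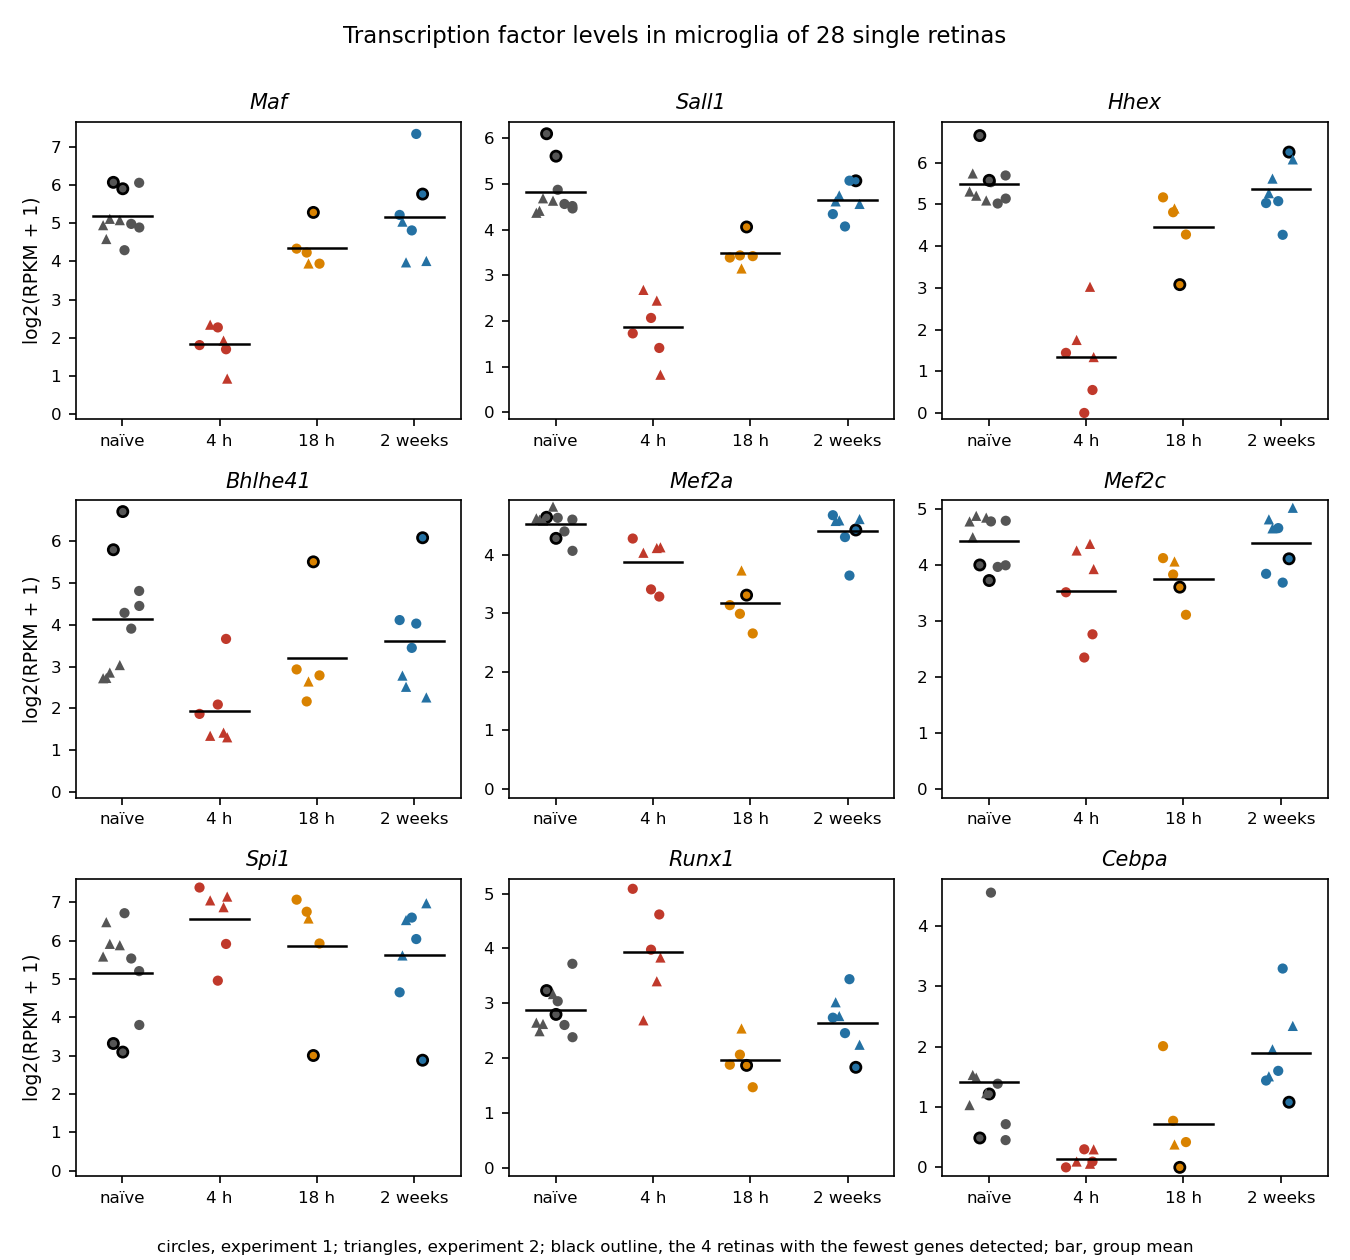
Level of each factor in each retina, as log2(RPKM + 1), by group. Circles are retinas of experiment 1, triangles those of experiment 2, black outlines the 4 retinas with the fewest genes detected, and bars group means of the log2 values. All 4 h retinas lie below all naïve retinas for Maf, Sall1, Hhex and Cebpa, and all 18 h retinas do for Sall1 and Mef2a.

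Promoters of 4 factors are shown because these genes moved in 1 comparison at 4 h, Hhex, Sall1 and Bhlhe41 down and Runx1 up. RefSeq promoters of the build GRCm38.p6 were at hand for 7 of the 9 genes, 12 in all, with Maf and Spi1 not among them. Each sequence is the 250 bases before an annotated start, 5′ to 3′ on the gene's strand, with capitals for a motif match. The Hhex window is chr19:37434591-37434840 on the plus strand. That of Sall1 is chr8:89042863-89043112, before the third of its 3 starts, that of Bhlhe41 chr6:145865421-145865670 and that of Runx1 chr16:92826075-92826324, before the more distal of 2 starts, all on the minus strand. For Sall1 and Runx1, the window shown is the one that held a motif match. Their other windows held none. The Sall1 window shown lies within the annotated span of the gene, and the window before its 5′ end is among those without a match.
Hhex: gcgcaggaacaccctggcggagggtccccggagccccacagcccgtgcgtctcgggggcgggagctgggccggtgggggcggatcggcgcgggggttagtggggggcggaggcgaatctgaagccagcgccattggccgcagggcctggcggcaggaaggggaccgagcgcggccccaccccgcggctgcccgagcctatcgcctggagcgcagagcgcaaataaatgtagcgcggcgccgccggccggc
Sall1: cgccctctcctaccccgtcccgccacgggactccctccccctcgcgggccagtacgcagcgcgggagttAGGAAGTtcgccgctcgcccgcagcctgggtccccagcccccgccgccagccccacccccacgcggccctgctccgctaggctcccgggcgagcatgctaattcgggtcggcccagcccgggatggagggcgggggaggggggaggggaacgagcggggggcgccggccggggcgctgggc
Bhlhe41: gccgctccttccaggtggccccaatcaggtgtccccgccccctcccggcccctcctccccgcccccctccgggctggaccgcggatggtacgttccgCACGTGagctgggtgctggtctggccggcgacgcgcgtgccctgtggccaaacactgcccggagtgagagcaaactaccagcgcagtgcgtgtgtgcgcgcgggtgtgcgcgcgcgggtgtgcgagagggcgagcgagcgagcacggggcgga
Runx1: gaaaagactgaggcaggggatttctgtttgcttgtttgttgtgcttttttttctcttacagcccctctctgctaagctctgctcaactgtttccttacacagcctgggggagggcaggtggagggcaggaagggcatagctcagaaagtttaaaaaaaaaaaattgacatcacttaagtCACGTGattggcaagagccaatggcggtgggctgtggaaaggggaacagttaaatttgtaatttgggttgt

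Motifs were searched as exact letters on both strands, with N for any base. They were AGGAAGT for PU.1, TGTGGT for RUNX, TTGCNNAA for C/EBP, TGCTGA for the core of the MAF site, CACGTG for the E-box bound by factors such as BHLHE41 and TGANTCA for AP-1, and the 10-base motifs of MEF2, NF-kappa B and IRF. In the sequences above, the Sall1 promoter held the PU.1 motif at 181 to 175 bases before the start. The E-box stood at 153 to 148 bases before the start of Bhlhe41 itself and at 71 to 66 bases before the distal start of Runx1. The Hhex window held none of the 9 motifs. Of the other 8 promoters, 1 of the 3 of Mef2c held an AP-1 motif and a MAF core, and the rest, including those of Mef2a and Cebpa, held none. None of the matches overlapped. Among 32851 promoters of the same length, 7.69% held the PU.1 motif, 6.02% the E-box, 6.75% the AP-1 motif, 16.1% the MAF core, 14% the RUNX motif, 9.56% the C/EBP motif, 3.2% the MEF2 motif, 2.98% the IRF motif and 1.21% the NF-kappa B motif. A match describes letters in this window and is not a bound site.

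In naïve retinas Spi1 had the highest median level of the 9, at 46.2 RPKM, followed by Hhex (42.0), Maf (31.9), Mef2c (24), Sall1 (23.3), Mef2a (23.3), Bhlhe41 (16.3), Runx1 (5.62) and Cebpa (1.33). The ranges of any neighbouring pair in this order overlapped. The factors differed in how evenly naïve retinas expressed them. Mef2a varied least, with a highest retina 1.73 times its lowest, and Bhlhe41, Spi1 and Cebpa most, at 18.7, 13.8 and 61.0 times. The order of the medians at 18 h and at 2 weeks was that of naïve retinas. At 4 h Spi1 was again first and Cebpa last, but Hhex stood 8th instead of 2nd, Maf 6th instead of 3rd, Mef2a 2nd instead of 6th and Runx1 3rd instead of 8th. At 4 h the range of Spi1 no longer met that of its neighbour Mef2a, while all further neighbours overlapped.

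Maf, which encodes c-MAF, a leucine zipper factor of tissue macrophages, lies on chromosome 8 (115682942-115707794, minus strand; GRCm38). Its naïve retinas spanned 18.7 to 66.8 RPKM with a median of 31.9, and the 4 h retinas 0.890 to 4.05 with a median of 2.63, so that no 4 h retina came near a naïve one. The log2 difference was -3.38 ± 0.40 (SE, n = 6 and 10; adjusted p = 3.11e-07), the 10th largest decrease of the 13164 genes. At 18 h the 5 retinas held 19.2, 14.4, 17.8, 38.2 and 14.5 RPKM, of which 1 lay above the naïve median and the others below it. The 18 h level was above that at 4 h by 2.53 ± 0.47 (adjusted p = 6.62e-04) and was not called against naïve retinas (-0.85 ± 0.43, adjusted p = 0.300). At 2 weeks values ran from 14.7 to 162.9 RPKM with a median of 32.1, and the highest, retina 4, was far from the next at 53.7. The 2-week level exceeded that at 4 h by 3.35 ± 0.43 (adjusted p = 2.01e-06).

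Sall1 (chromosome 8, 89027235-89044162, minus strand) was lower at both acute times. Naïve retinas had 19.7 to 67.8 RPKM (median 23.3) and 4 h retinas 0.771 to 5.42 (median 2.76). At 18 h the values were 9.49, 9.72, 9.84, 15.7 and 8.0 RPKM, a narrow band between those ranges that met neither. The log2 difference from naïve was -2.96 ± 0.31 at 4 h (adjusted p = 3.25e-08) and -1.33 ± 0.33 at 18 h (adjusted p = 0.0143). Median RPKM was 11.8% of the naïve median at 4 h and 41.8% at 18 h. The 18 h retinas were above the 4 h retinas by 1.64 ± 0.37 (adjusted p = 0.00544), a call lost with a pseudocount of 10 (0.66, adjusted p = 0.0643) and in experiment 1 or 2 alone (adjusted p = 0.106 and 0.266). At 2 weeks the range was 15.8 to 32.7 RPKM (median 23.6), above the 4 h level by 2.78 ± 0.34 (adjusted p = 6.84e-07), and the step from 18 h to 2 weeks, 1.15 ± 0.36, was not called (adjusted p = 0.0828). That step was called in 3 of 15 alternative settings, among them the fit without the 4 retinas with the fewest genes. It was also called in 1 of 28 fits without 1 retina. All 2-week retinas lay above all 18 h retinas, the closest at 15.8 and 15.7 RPKM. The shares of all genes separated between 4 h and 18 h or between 18 h and 2 weeks were not counted.

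Hhex (chromosome 19, 37434810-37440731, plus strand) had the second-largest decrease of all 13164 genes at 4 h. Naïve retinas ran from 31.5 to 99.5 RPKM (median 42.0). The 6 retinas at 4 h had 1.72, 0, 0.465, 2.36, 1.53 and 7.14 RPKM, retina 2 being listed at 0, and the highest of them was well under the lowest naïve value. One alignment to the longest Hhex transcript corresponds to 0.013 to 0.0341 RPKM over these depths. The log2 difference was -4.15 ± 0.39 (adjusted p = 3.75e-09). At 18 h the 5 retinas had 35.0, 18.4, 27.1, 7.44 and 29.3 RPKM, of which 4 lay below all naïve retinas. As a group they were not called against naïve retinas (-1.05 ± 0.42, adjusted p = 0.162) and exceeded 4 h by 3.10 ± 0.46 (adjusted p = 2.94e-05). The 2-week retinas held 18.3 to 75.4 RPKM (median 37.6). From 4 h to 2 weeks Hhex had the largest increase of all genes tested, 4.02 ± 0.42 (adjusted p = 4.17e-08).

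Bhlhe41 (chromosome 6, 145858243-145865558, minus strand) was called lower at 4 h, with more spread. Naïve retinas held 5.58 to 104 RPKM (median 16.3) and 4 h retinas 1.47 to 11.7 (median 2.15), and the groups overlapped. The log2 difference was -2.19 ± 0.61 (adjusted p = 0.0190). Much of that spread lay between the experiments. Naïve retinas of experiment 1 had 14.0 to 104 RPKM and those of experiment 2 had 5.58 to 7.20, a log2 difference of -2.16 ± 0.60 that narrowly missed the threshold (adjusted p = 0.0587) and passed it once the 4 retinas described below were left out (-1.53, adjusted p = 0.0338). Within each experiment the 4 h retinas lay below all naïve ones, at 2.64 to 11.7 RPKM in experiment 1 and 1.47 to 1.66 in experiment 2. Fitted alone, the decrease was -2.46 in experiment 1 (adjusted p = 0.106) and -1.48 in experiment 2 (adjusted p = 0.0012), and it did not pass without 4 h retina 5 (adjusted p = 0.0559). At 18 h the values were 6.62, 5.90, 3.48, 44.6 and 5.25 RPKM, 1 retina standing far above the other 4 (-0.92 ± 0.65, adjusted p = 0.502). At 2 weeks they spanned 3.78 to 67.1 RPKM with a median of 9.91.

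Mef2a, 1 of the 4 mammalian myocyte enhancer factors, was called lower than in naïve retinas at 18 h and not at 4 h. It lies on chromosome 7 (67231163-67372858, minus strand) and had 15.8 to 27.3 RPKM in naïve retinas (median 23.3) and 8.77 to 18.4 at 4 h (median 15.9). The 4 h difference was -0.65 ± 0.25 (adjusted p = 0.121), not a call. At 18 h all 5 retinas, at 7.82, 5.31, 6.96, 8.93 and 12.4 RPKM, lay below all naïve retinas, a difference of -1.36 ± 0.27 (adjusted p = 0.00175). The direct comparison of 18 h with 4 h, -0.71 ± 0.30, was not called (adjusted p = 0.204), so that a later decrease than for Maf or Hhex was not shown for Mef2a alone. At 2 weeks the level was 11.5 to 24.6 RPKM (median 22.9), above 18 h by 1.24 ± 0.29 (adjusted p = 0.0130). That increase was not called without 18 h retina 2 (adjusted p = 0.0643) or with the replicate number as a block (adjusted p = 0.0630).

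Mef2c (chromosome 13, 83504034-83667080, plus strand), a MEF2 factor studied in microglia for restraint of inflammatory responses, was not called at any time. It had 12.2 to 28.3 RPKM in naïve retinas (median 24), 4.1 to 19.8 at 4 h (median 12.3) and 11.9 to 31.4 at 2 weeks (median 24.1). The 18 h retinas held 16.4, 7.64, 13.2, 11.2 and 15.7 RPKM. All these groups overlapped with naïve retinas. Within each experiment the 4 h retinas did not: they had 4.1 to 10.4 RPKM against 12.2 to 26.6 in experiment 1, and 14.2 to 19.8 against 21.5 to 28.3 in experiment 2. With 3 retinas at 4 h in each experiment, such a separation was not tested, and its share over all genes was not counted. The log2 difference was -0.89 ± 0.33 at 4 h (adjusted p = 0.0903) and -0.68 ± 0.35 at 18 h (adjusted p = 0.310), and the former was called without the 4 retinas with the fewest genes (-1.03, adjusted p = 0.0263).

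Among the lineage factors, Runx1 was the only 1 of the 9 called higher at 4 h. RUNX1 is a runt-domain factor needed for blood formation, and its gene lies on chromosome 16 (92601466-92826149, minus strand). Naïve retinas had 4.22 to 12.2 RPKM (median 5.62) and 4 h retinas 5.46 to 33 (median 14.0). The difference was 1.06 ± 0.33 (adjusted p = 0.0388), near both thresholds. The 3 retinas of experiment 1, at 14.8 to 33 RPKM, lay above all 6 naïve ones of that experiment (4.22 to 12.2), whereas in experiment 2 the 4 h range of 5.46 to 13.3 met the naïve range of 4.63 to 8.0. The change did not differ between the experiments by test (-1.02 ± 0.61 in experiment 2 minus 1, adjusted p = 1), and neither experiment alone gave a call (1.60, adjusted p = 0.103, and 0.58, adjusted p = 0.239). Leaving out 4 h retina 1, the highest, reduced it to 0.83 (adjusted p = 0.154), and the call was also lost without naïve retina 2, 6, 7, 8 or 9 or 4 h retina 2, 3 or 5 (adjusted p = 0.0595 to 0.119).

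The level of Runx1 was lower again at 18 h. The 5 retinas held 2.69, 1.78, 3.19, 2.66 and 4.89 RPKM, below all 4 h retinas, with a difference from 4 h of -1.96 ± 0.39 (adjusted p = 0.00134). How many of all genes separate in this way between 4 h and 18 h was not counted. Against naïve retinas the 18 h difference was -0.90 ± 0.35 (adjusted p = 0.153), with 4 of the 5 retinas below all naïve ones. At 2 weeks values of 2.57 to 9.86 RPKM (median 5.68) lay below those at 4 h by a log2 difference of -1.29 ± 0.36 (adjusted p = 0.0225), which was not called without 4 h retina 1 (adjusted p = 0.0878) or 3 (adjusted p = 0.0753).

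Spi1 (chromosome 2, 91082390-91115756, plus strand) encodes PU.1, on which microglia depend for their existence. Naïve retinas ranged from 7.54 to 104 RPKM (median 46.2), 4 h retinas from 30.1 to 166 (median 124) and 2-week retinas from 6.37 to 125 (median 65.0). The 18 h retinas had 133, 59.9, 107, 7.03 and 95.4 RPKM. The log2 differences of 1.4 ± 0.64 at 4 h (adjusted p = 0.201) and 0.72 ± 0.68 at 18 h (adjusted p = 0.641) were not called, and their errors were the largest of the 9 factors. In experiment 2 the 3 retinas at 4 h, with 116 to 141 RPKM, lay above the 4 naïve ones (47.1 to 88.5), and that experiment alone gave a call (1.06, adjusted p = 0.0393), the only 1 of 15 alternatives to do so. In experiment 1 the ranges overlapped, at 30.1 to 166 against 7.54 to 104 RPKM.

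Cebpa encodes C/EBPα, a basic leucine zipper factor of early myeloid cells, and lies on chromosome 7 (35119293-35121928, plus strand). It was the lowest of the 9 in all 4 groups. Naïve retinas had 0.367 to 22.4 RPKM (median 1.33), where retina 1 at 22.4 stood apart from the next at 1.89. At 4 h the 6 retinas were at 0, 0.230, 0.0676, 0.0688, 0.229 and 0.0426 RPKM, all below the lowest naïve retina, values that correspond to 8.34 alignments or fewer on the longest transcript. The log2(RPKM + 1) difference was -1.27 ± 0.43 (adjusted p = 0.0664), not a call. With 0.1 in place of 1 added before the logarithm it was -3.0 (adjusted p = 0.00594). At 18 h the 5 retinas were at 3.02, 0.336, 0.706, 0 and 0.302 RPKM (-0.69 ± 0.46, adjusted p = 0.469). At 2 weeks they had 1.11 to 8.79 RPKM (median 2.03), above those at 4 h by 1.75 ± 0.47 (adjusted p = 0.0182). This call was lost with a pseudocount of 10 (0.36, adjusted p = 0.244), without a filter on low values (adjusted p = 0.0571) and in experiment 1 alone (adjusted p = 0.409).

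**Figure D2:**
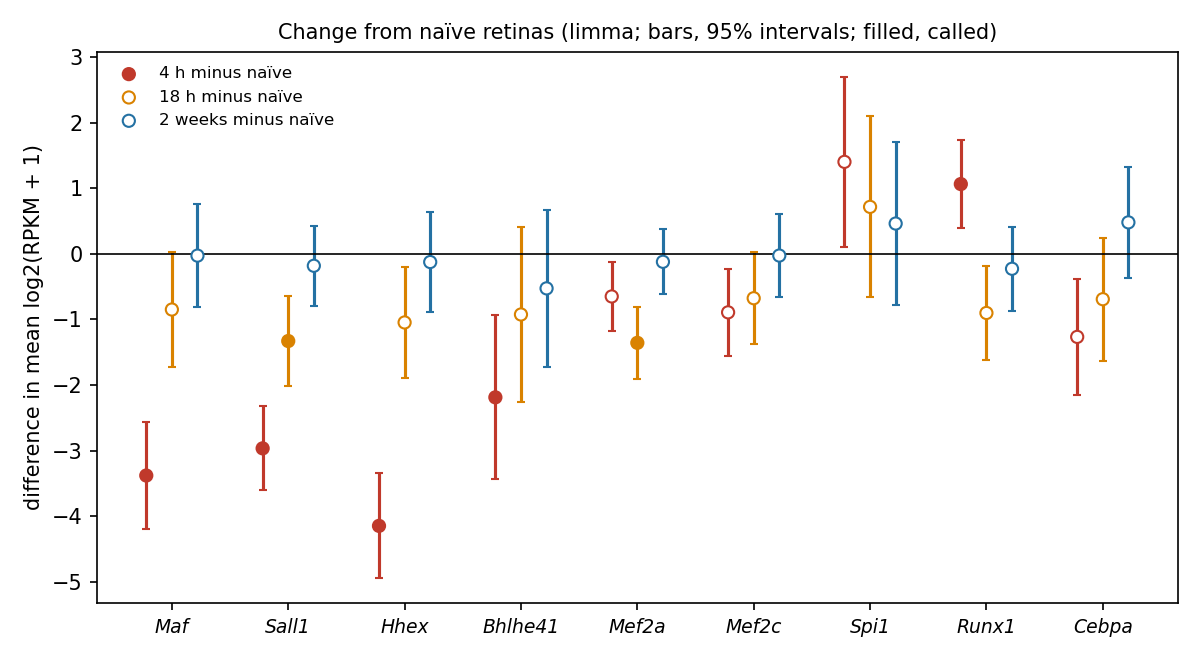
Log2 difference of each factor from naïve retinas at each of the 3 times after LPS, with 95% intervals from limma, filled where the gene was called. Maf, Sall1, Hhex and Bhlhe41 are below 0 and Runx1 above 0 at 4 h, Sall1 and Mef2a are below 0 at 18 h, and all 9 intervals include 0 at 2 weeks.

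Counted together, all retinas of a group lay below all naïve retinas for 4 of the 9 factors at 4 h (Maf, Sall1, Hhex and Cebpa) and for 2 at 18 h (Sall1 and Mef2a), beside 1.42% and 1.3% of all genes tested. None of the 9 lay wholly above the naïve range at either time, beside 1.65% and 2.05%. At 2 weeks this held for 0 of the 9 in either direction, beside 0 and 0.0076%. The recovery from 4 h was tested directly. Between 4 h and 18 h, 4 of the 9 were called, Maf, Sall1 and Hhex higher and Runx1 lower (5.42% of all genes, 2.92% higher and 2.51% lower). Between 18 h and 2 weeks 1 was, Mef2a, higher at 2 weeks (2.65%, 1.1% higher and 1.55% lower), and between 4 h and 2 weeks 5 were, Maf, Sall1, Hhex and Cebpa higher and Runx1 lower (6.09%, 3.18% higher and 2.91% lower). At 2 weeks against naïve retinas limma called none of the 9, and none had an unadjusted p under 0.05. For Maf, Sall1, Hhex, Mef2a, Mef2c and Runx1 the 95% interval of the 2-week difference lay within 1 on the log2 scale, that is a fold change of 2 (lowest bound -0.89, for Hhex). Leaving out 1 retina took the lower bound past -1 for Maf (-1.09 without 2-week retina 4, the highest), Hhex (-1.05 and -1.04 without 2-week retina 1 or 5) and Runx1 (-1.02 without 2-week retina 4). For Bhlhe41 (-1.72 to 0.67), Spi1 (-0.78 to 1.70) and Cebpa (-0.37 to 1.32) a 2-fold difference was not excluded by the interval.

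The experiments did not differ by test in the change of any of the 9. For the 4 h change 0.0988% of all genes passed that test and for the 2-week change 0%. Unadjusted, 1 of the 9 had a p under 0.05, Hhex at 4 h, whose difference between experiments was 1.64 ± 0.75 (adjusted p = 0.996), with 0 to 1.72 RPKM in experiment 1 and 1.53 to 7.14 in experiment 2. In naïve retinas 1.79% of genes differed between the experiments, and Bhlhe41 was the only factor with an unadjusted p under 0.05. At 18 h experiment 2 had 1 retina, and Sall1 and Mef2a lay below the naïve range of the same experiment in both. Shares of all genes separated within 1 experiment were not counted. Such separations, here and for Bhlhe41, Mef2c, Runx1 and Spi1 above, are descriptions. Without strand information, reads of Maf, Mef2a, Runx1, Cebpa and Bhlhe41 could not be told apart from those of opposite-strand genes that overlap their exons (Gm15655, Lysmd4, Gm26626, Gm45091 and Gm43909).

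The levels of Spi1 and Bhlhe41 were the most extreme in the retinas with the fewest genes detected. The libraries had 7510000 to 19700000 alignments and 6552 to 11825 genes at 1 RPKM or more, and 4 of them (naïve 3 and 4, 18 h 4 and 2 weeks 1, all of experiment 1) had 6552 to 7088 genes against 8137 to 11825 in the other 24. Those 4 held the 4 lowest Spi1 values of the 28, 6.37 to 8.97 RPKM, and the 4 highest Bhlhe41 values, 44.6 to 104. They also held the 2nd, 4th, 5th and 6th highest Maf values, and for Sall1 naïve retinas 3 and 4 (67.8 and 47.9 RPKM) were the highest of all, against at most 28.4 in the other naïve retinas. In the other retinas Spi1 did not go under 12.9 RPKM nor Bhlhe41 over 27.1. Without the 4 retinas, 7 of the 9 factors were called at 4 h, Mef2c and Cebpa (-1.41, adjusted p = 0.0347) joining the 5, where the share of all genes called in the same fit was 11.3% instead of 8.08%, and Bhlhe41 was lower by a log2 difference of -1.66 (adjusted p = 0.00677). Spi1 was again not called (0.91, adjusted p = 0.162). The counts at 18 h and 2 weeks against naïve retinas were 2 and 0, beside 6.68% and 0.0076% of all genes.

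**Figure D3:**
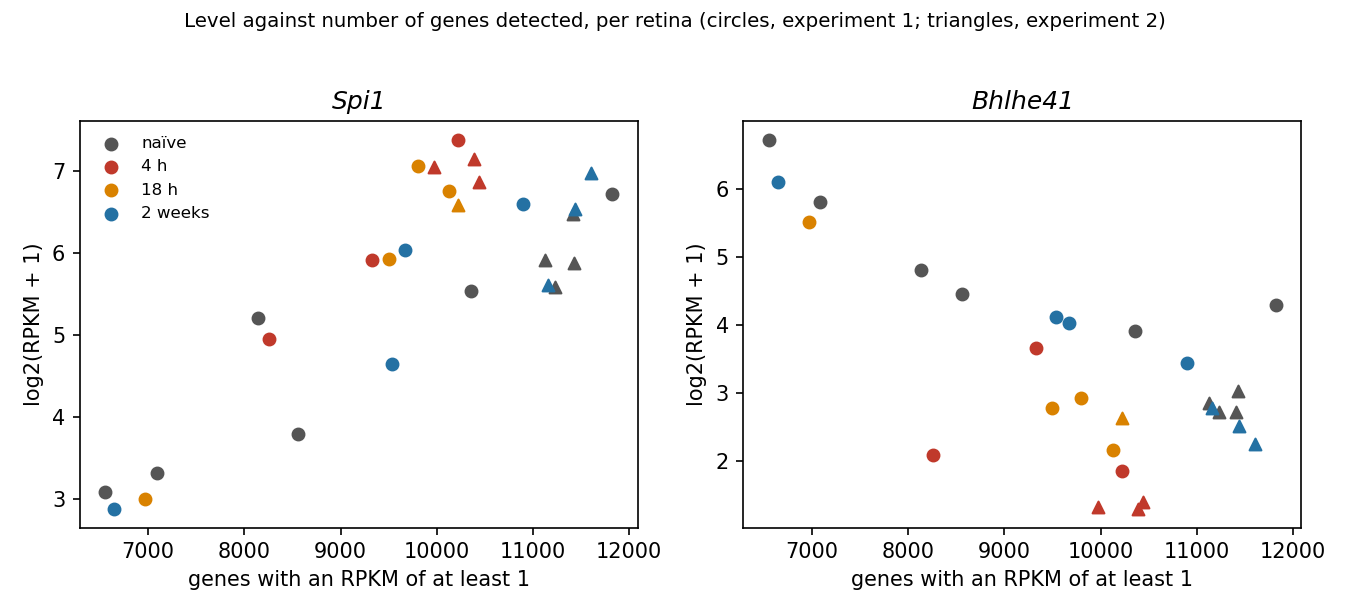
Spi1 (left) and Bhlhe41 (right) as log2(RPKM + 1) against the number of genes detected at 1 RPKM or more, 1 point per retina coloured by group, with circles for experiment 1 and triangles for experiment 2. The 4 retinas with 6552 to 7088 genes have the lowest Spi1 and the highest Bhlhe41 values.

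Markers of other cells were measured beside these changes. The 34 genes of resting microglia summed to 10846 to 29332 RPKM in naïve retinas, 5496 to 19061 at 4 h, 5061 to 19767 at 18 h and 13477 to 30801 at 2 weeks. The 9 of 10 neutrophil markers in the table summed to 5.60 to 83.0, 0.321 to 37.8, 2.86 to 28.3 and 7.24 to 66.6 RPKM in the same order, with Csf3r alone reaching 83.0, 36.8, 11.7 and 65.5. S100a8 and S100a9 were listed at 0 in all naïve retinas and reached 9.24 and 5.15 RPKM at 18 h. The 9 monocyte markers summed to 0.181 to 29.5, 1.4 to 19.3, 0.304 to 50.2 and 1.99 to 28.5 RPKM, with Ly6c2 and Ccr2 at most 4.68 and 1.15. Plac8 had a median of 0.108 RPKM in naïve retinas and 6.63 at 18 h, where it reached 27.46. Fn1 had medians of 0.0098 and 0.2505 RPKM in these groups and reached 16.99 at 18 h. The medians of F13a1 and Itga4 were lower at 18 h, at 0.328 and 0.195 RPKM against 5.685 and 0.226 in naïve retinas. Lymphocyte markers, 8 in all, summed to 20.2 to 81.5, 6.62 to 18.3, 43.5 to 119 and 23.2 to 57.0 RPKM. Cd79b alone was at 20.2 to 81.3, 6.60 to 18.3, 27.5 to 53.6 and 23.2 to 56.5 of these. Nkg7, a gene of cytotoxic cells, was listed at 0 in all naïve and 4 h retinas and at 5.77 to 86.4 at 18 h, and the T cell receptor gene Trac reached 11.3 at 18 h. The 7 markers of border macrophages summed to 0.243 to 510 RPKM in naïve retinas, 32.7 to 331 at 4 h, 4.93 to 38.1 at 18 h and 0.714 to 361 at 2 weeks, and endothelial markers to at most 4.13. The highest sum of the 5 erythrocyte markers was 735 RPKM, in a 4 h retina, where that of the other groups was 67.9 or less. Rod photoreceptor markers were at 696 to 5476, 1005 to 5287, 593 to 2290 and 778 to 5246 RPKM, and Müller glia markers at 55.3 to 184, 45.8 to 147, 49.1 to 81.7 and 112 to 188. The part of these transcripts in the differences above, at 18 h for Sall1 and Mef2a in particular, was not tested.

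The named factors belong to families whose other members were followed with them, 20 genes in all, of which 12 passed the filter on low values. At 4 h 2 of the 12 rose and 2 fell, beside 3.68% and 4.39% of all genes tested, with a median of 0.37. Cebpb, the C/EBP of inflammatory activation, had 55.9 ± 76.0 RPKM in naïve retinas (SD, n = 10) and 481 ± 583 at 4 h (n = 6), a log2 difference of 2.94 ± 0.69 (adjusted p = 0.00463), while Cebpa of the same family had the values given above. Maff, a small MAF protein without an activation domain, was at 0 to 0.487 RPKM in naïve retinas and 0.434 to 16.6 at 4 h, a rise of 2.40 ± 0.33 (adjusted p = 4.08e-06) beside the decrease of the large MAF factor Maf. Cebpg fell from 37.5 ± 16.8 to 6.61 ± 2.28 RPKM (-2.08 ± 0.45, adjusted p = 0.00180). Sall3 fell with Sall1, from 7.24 ± 3.77 to 1.31 ± 0.63 at 4 h (-1.76 ± 0.35, adjusted p = 7.02e-04) and 1.52 ± 0.64 at 18 h (-1.62 ± 0.37, adjusted p = 0.00608). At 18 h 2 of the 12 fell and none rose, beside 1.85% and 2.84% of all genes tested. The second to fall was Nrl, the large MAF factor of rods (-1.50 ± 0.44, adjusted p = 0.0384). The 9 rod markers above summed to 593 to 2290 RPKM at 18 h and 696 to 5476 in naïve retinas. None of them was called at 18 h, and their median log2 difference was -0.48. A relation to Nrl was not tested. Ddit3, the C/EBP relative CHOP, with a naïve mean of 25.3 RPKM, was not called, at 0.74 and 1.51 on the log2 scale. Its naïve mean was 12.5 RPKM in experiment 1 and 44.5 in experiment 2. At 2 weeks none of the 12 was called, beside 0.0076% of all genes tested.

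Of 54 other regulators of transcription in myeloid cells, 46 were tested. At 4 h 9 of them rose and 7 fell, beside 3.68% and 4.39% of all genes tested, with a median of -0.22. The largest rise was that of Id2, an inhibitor of basic helix-loop-helix factors, from 0.193 to 20.6 RPKM in naïve retinas (median 17.6) to 216 to 980 at 4 h (median 535), a log2 difference of 5.47 ± 0.54 (adjusted p = 9.50e-09). Etv3 (2.48), Id3 (2.45) and Klf7 (1.90) followed. The largest decreases were those of Lyl1 (-2.78 ± 0.54, adjusted p = 5.86e-04) and its partner Lmo2 (-2.52 ± 0.47, adjusted p = 3.23e-04), blood lineage factors, and of the ETS factors Fli1 (-2.39) and Etv5 (-2.02). At 18 h 3 of the 46 were called, beside 4.69% of all genes tested (2.84% higher and 1.85% lower). Id2 was higher (2.60 ± 0.58, adjusted p = 0.00504), and Lyl1 (-2.11) and Lmo2 (-1.78) were lower, with a median over the list of -0.48. None was called at 2 weeks, beside 0.0076%.

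The homeostatic genes of microglia, 34 listed and all tested, gave calls in 1 direction at the acute times. At 4 h 14 of them fell, none rose and 20 were not called, with a median of -1.06, beside 4.39% of all genes called lower. At 18 h 15 fell, none rose and 19 were not called, with a median of -1.56, beside 1.85%. The median of the 9 factors was nearer 0 at 18 h than at 4 h. The largest decreases at 4 h were those of the receptors Gpr34 (-3.54), P2ry13 (-2.70) and P2ry12 (-2.35) and of the transporter Slco2b1 (-2.66). At 18 h they were those of Ltc4s, the leukotriene C4 synthase (-4.67), Gpr34 (-3.81), the fructose transporter Slc2a5 (-3.50) and P2ry12 (-3.28). None was called at 2 weeks against naïve retinas (median 0.16), beside 0.0076% of all genes. From 18 h to 2 weeks 16 were called higher, beside 1.1% of all genes. The difference between the lists was not tested.

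**Figure D4:**
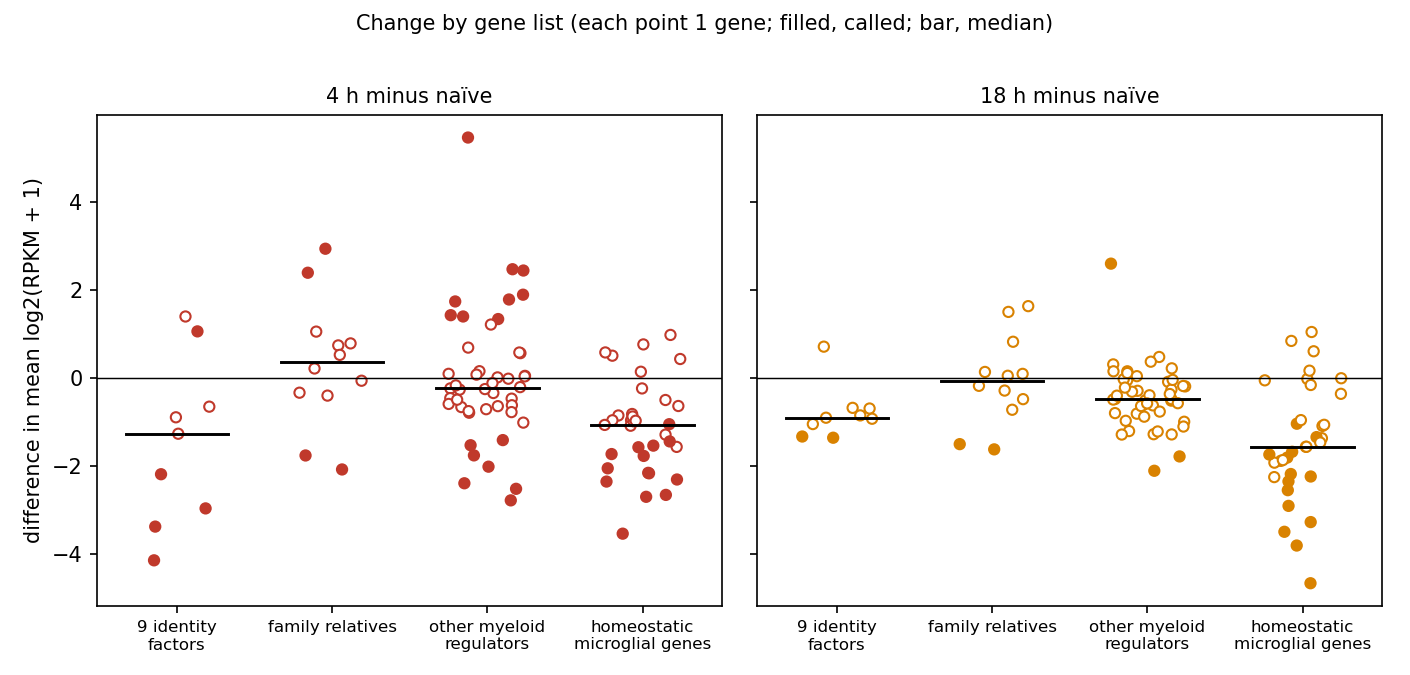
Log2 difference from naïve retinas at 4 h (left) and 18 h (right) for the 9 identity factors, 12 family relatives, 46 other myeloid regulators and 34 homeostatic microglial genes. Each point is 1 gene, filled where called, and bars are medians, which are -1.27, 0.37, -0.22 and -1.06 at 4 h and -0.90, -0.06, -0.48 and -1.56 at 18 h.

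Time courses most like those of the called factors were sought over the 4 group means of log2(RPKM + 1), each gene centred on its own mean, by Euclidean distance among the other 13163 genes. With 4 points that share the naïve retinas, the distance is a description. Maf was closest to Gcnt1, a glycosyltransferase gene (distance 0.166), then to Gm26740 (0.301) and Gm15537 (0.393). Sall1 was closest to Nr6a1os (0.244), Gal3st4 (0.286) and the purinergic receptor gene P2ry13 (0.304), and Hhex to Dusp6, an ERK phosphatase gene (0.241), and Hspb3 (0.278). Mef2a was closest to Bend6 (0.0927), Frmd4b (0.10) and Ski (0.101), Runx1 to the repressor gene Prdm1 (0.0513), Ugcg (0.0587) and Dennd4a (0.138), and Bhlhe41 to Dleu2 (0.0162), Herc2 (0.116) and Fam212a (0.131). Among the 9 themselves the closest pair was Maf and Hhex (0.596) and the most distant Hhex and Runx1 (4.5).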

How the data were processed

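The 28 retinas were grouped by the labels. The authors trimmed the reads, aligned them to mm10 with STAR 2.5.3a, assigned them to Ensembl transcripts by Partek's expectation-maximisation and deposited RPKM values per gene and retina; reads divided by estimation can leave very low values or exact zeros. The SMART-Seq cDNA carries no strand. The authors' tables of p-values and fold changes at 4 h and 18 h were not used. The 13164 of 40021 genes that reached 1 RPKM in 5 or more retinas were tested on log2(RPKM + 1) in R 4.3.3 with limma 3.58.1, in 1 fit of the 4 groups (the difference between experiments in 1 fit of group by experiment), moderating variances by a trend with the mean and adjusting by Benjamini-Hochberg. The threshold was an adjusted p of at most 0.05 and, except between experiments, a 2-fold change; the script was tested on simulated data. The factors and gene lists were chosen with earlier results of these data known. Named genes are the 9 factors, relatives called or with a naïve mean of at least 20 RPKM, the 4 largest called rises and falls of the other lists at 4 h and 18 h, the 3 nearest time courses, and markers and overlapping genes. The result of 1 such gene is not reported here. Alternatives were pseudocounts, filters, covariates, scalings, single experiments, a replicate block and leaving out retinas. Coordinates are from GENCODE M21 on GRCm38. Figures were drawn with Python 3.11.15. No retina repeated another: pairs had at most 2 nonzero values in common. The number of alignments sets the precision of low values. The p-values weigh a group difference against the moderated spread between retinas within groups, which need not be the spread between animals.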

Additional observations from a re-analysis of the deposited data

Results flagged for a closer look

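In a test of each factor in each group for a retina that stands apart, 13 of 36 groups had one, where chance gives about 1 in 20 for normal values. RPKM values are skewed towards high ones and the groups share retinas, so that this rate need not hold here. Each was the highest of its group. In naïve retinas these were Hhex in retina 3 (99.5 RPKM), Runx1 in retina 5 (12.2), Cebpa in retina 1 (22.4) and Bhlhe41 in retina 4 (104.2). At 4 h they were Hhex in retina 6 (7.14) and Bhlhe41 in retina 3 (11.7). At 18 h they were Maf (38.2), Sall1 (15.7) and Bhlhe41 (44.6) in retina 4 and Cebpa in retina 1 (3.02), and at 2 weeks Maf (162.9) and Cebpa (8.79) in retina 4 and Bhlhe41 in retina 1 (67.1). The values of naïve retinas 3 and 4, 18 h retina 4 and 2-week retina 1 come from the libraries with the fewest genes.

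The change from naïve retinas differed between times by a direct test for 6 factors. The 18 h change exceeded the 4 h change by 2.53 for Maf, 1.64 for Sall1 and 3.10 for Hhex on the log2 scale, and was below it for Runx1 (-1.96). The 2-week change differed from the 4 h change by 3.35 for Maf, 2.78 for Sall1, 4.02 for Hhex, 1.75 for Cebpa and -1.29 for Runx1, and from the 18 h change by 1.24 for Mef2a.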

How the results depend on the processing

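The decreases of Maf, Sall1 and Hhex at 4 h were called under all 15 alternative settings and with each retina left out, with Hhex between -5.20 and -2.18 across pseudocounts of 0.1 and 10. Calls of Runx1 at 4 h held in 8 of the 15 settings and 19 of 28 fits without 1 retina, Bhlhe41 in 12 and 27, and those of Sall1 and Mef2a at 18 h in 12 each and 27 and 28. No called direction reversed. For the counts of factors below, the share of all genes called in the same fit can also move with the setting. Between 18 h and 2 weeks it was 4.04% without the 4 retinas with the fewest genes, instead of 2.65%. It is not given for the other settings, so that a changed count is not a result about the factors. Of the 9 factors, a pseudocount of 10 left 3 called at 4 h, 0 at 18 h, 2 between 4 h and 18 h, 0 between 18 h and 2 weeks and 3 between 4 h and 2 weeks; the larger pseudocount shrinks fold changes of low genes. Experiment 1 alone gave 3 calls at 4 h, 0 at 18 h, 0 between 18 h and 2 weeks and 3 between 4 h and 2 weeks, and experiment 2 alone 0 at 18 h and 0 between 18 h and 2 weeks, with fewer retinas (1 at 18 h in experiment 2, assumed to vary like the other groups). Between 18 h and 2 weeks, calls were 0 with the replicate block or only the groups compared, and 2 with a filter at 5 RPKM, with equal summed RPKM or without the 4 retinas with the fewest genes, an alternative chosen after seeing the data that also called 1 factor, Bhlhe41, between experiments in naïve retinas; the cause was not tested. Replicate numbers were not taken to pair retinas: deviations from group means correlated above 0.1 in 15 of 34 same-numbered pairs (median 0.035) and in 93 of 253 other pairs (median 0.0054). The block changed 3 calls, all lost: Mef2a between 18 h and 2 weeks, and Runx1 at 4 h and between 4 h and 2 weeks (adjusted p = 0.130 and 0.0747). Leaving out 1 retina gave 3 to 6 calls at 4 h (3 without 4 h retina 5), 1 to 2 at 18 h (1 without 18 h retina 5, where Sall1 had an adjusted p of 0.0519), 0 to 2 between 18 h and 2 weeks (0 without 18 h retina 2, 2 without naïve retina 3) and 0 to 1 between experiments in naïve retinas. Equal summed RPKM moved the median of all genes from -0.11 to -0.28 at 4 h and from -0.08 to -0.26 at 18 h, the share of DEGs that were lower from 54.4% to 71% and from 39.5% to 67.6%, and the median of the 9 factors to -1.38 and -1.17.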
